A study of Mus musculus with 12 samples.

Results

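The 41 kinesin superfamily genes of the mouse were followed in nuclear RNA of the cortex on the day of birth (P0) and on postnatal days 14 (P14) and 28 (P28). They are all genes whose symbol is Kif followed by a number, with or without a letter from a to c, together with Kifc1, Kifc2 and Kifc3, that were listed in the tables of all 3 ages. They make up 41 of the 25834 genes in all 3 tables. Kinesins are motor proteins that use ATP to move along microtubules. Most carry cargo toward the plus end of the microtubule, which in an axon points away from the cell body, and the C-terminal kinesins (Kifc genes) move toward the minus end. Another set works in the mitotic spindle and at cytokinesis, and others shorten microtubules or act in cilia. By these roles 12 members were taken as mitotic kinesins, 17 as transport kinesins, 9 as kinesins of cilia or of microtubule ends, and 3 as atypical or little studied.

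The genotype was CAG-Sun1/sfGFP +/-; NEX-Cre +/- in all pups, which were male: Sun1/sfGFP tags the nuclear envelope once Cre has acted, and NEX-Cre drives Cre from the Neurod6 locus of excitatory cortical neurons. All 3 groups share this genotype, and no library without the tag or without Cre was compared here. Tagged nuclei were purified by INTACT, an affinity method, and polyadenylated RNA was sequenced in 4 libraries at P0, 4 at P14 and 4 at P28, labelled as biological replicates. The library labels name the P0 and P14 animals WT and do not use that word at P28, and P0 replicate 1 and P28 replicate 4 are labelled as merged.

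Levels below are scaled CPM: a gene's reads as a share of the library's reads over the shared genes (CPM), brought to a common scale over the 12 libraries. They are set across tables that the authors normalized separately. Means are ± SD over 4 libraries, and log2 fold changes are ± SE on the scale log2(scaled CPM + 0.5), which understates changes of low genes. Adjusted p-values are two-sided, from limma with Benjamini-Hochberg adjustment over the 15734 genes tested, and 0.05 is the threshold. The libraries of P0 held 13195973 to 16599217 recovered reads, those of P14 held 25486861 to 33611769, and those of P28 held 21569262 to 31215435. P14 replicate 2 stood apart from the other P14 libraries, with a mean correlation of 0.951 to them, against 0.976 or more in every other library with its own age, and results that rest on it are given with and without it. The summed level of 7 excitatory neuron markers ranged over 1387 to 1583 (P0), 1266 to 2176 (P14) and 2375 to 2490 (P28). However, 1 of the 7 was called higher and 5 lower at P14 against P0, where 34.4% of all genes tested were higher and 34.5% lower. Markers of other cells were present too: the sum of 6 oligodendrocyte markers ranged over 78.7 to 90.6 (P0), 952 to 2355 (P14) and 1737 to 2820 (P28). No marker of any list was at 0 reads over an age.

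Promoter sequences of 31 members were at hand from RefSeq (GRCm38.p6). The 150 bases before a start are shown for 5 mitotic kinesin genes and for Kif17, a transport gene that rose. They are also shown for the atypical gene Kif26b, which was among the genes that fell most. The start is the one that each promoter sequence was drawn around. For Kif22 and Kif18b the annotated gene span reaches past it into the window, to 127042467 and 102925134. Capitals mark 3 motifs known from promoters of cell cycle genes, searched on both strands: the cell cycle homology region CHR (TTTGAA or TTCGAA), the CCAAT box (CCAAT) and an E2F-like site (TTGGCGC or TTCGCGC). Each sequence is written 5′ to 3′ on the strand of its gene.
Kif11 (chr19:37376232-37376381, plus strand): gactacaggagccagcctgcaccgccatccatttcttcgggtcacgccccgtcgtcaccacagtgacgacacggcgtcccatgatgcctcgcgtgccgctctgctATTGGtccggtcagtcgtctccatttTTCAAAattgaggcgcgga
Kif15 (chr9:122950931-122951080, plus strand): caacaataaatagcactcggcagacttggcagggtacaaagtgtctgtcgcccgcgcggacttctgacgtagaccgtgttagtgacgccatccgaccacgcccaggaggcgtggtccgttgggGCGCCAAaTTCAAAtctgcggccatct
Kif4 (chrX:100625915-100626064, plus strand): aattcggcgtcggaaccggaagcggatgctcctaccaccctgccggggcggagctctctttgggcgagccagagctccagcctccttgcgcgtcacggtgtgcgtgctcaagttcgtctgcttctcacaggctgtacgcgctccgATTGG
Kif18b (chr11:102925125-102925274, minus strand): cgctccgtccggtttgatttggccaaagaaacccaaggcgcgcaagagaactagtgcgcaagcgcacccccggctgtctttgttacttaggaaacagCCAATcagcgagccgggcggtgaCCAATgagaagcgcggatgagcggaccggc
Kif22 (chr7:127042421-127042570, minus strand): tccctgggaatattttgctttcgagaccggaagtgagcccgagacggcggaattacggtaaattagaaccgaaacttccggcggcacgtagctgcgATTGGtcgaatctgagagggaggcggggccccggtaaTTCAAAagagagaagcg
Kif26b (chr1:178528975-178529124, plus strand): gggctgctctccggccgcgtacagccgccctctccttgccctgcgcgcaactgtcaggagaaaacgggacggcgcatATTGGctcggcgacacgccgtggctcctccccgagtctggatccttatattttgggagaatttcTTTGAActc
Kif17 (chr4:138262101-138262250, plus strand): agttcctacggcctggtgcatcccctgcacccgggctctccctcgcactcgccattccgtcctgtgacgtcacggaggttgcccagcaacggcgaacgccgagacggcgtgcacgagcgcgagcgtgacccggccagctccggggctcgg

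In Kif11 and Kif15 the CHR match began 19 bases before the start, and in Kif22 it began 17 bases before it. The Kif22 CHR match lies inside the annotated span of that gene. Of the matches counted below, the CHR matches of Kif2c, Kif1a, Kif24 and Kif27 also lie inside the spans of their genes. So do the CCAAT matches of Kif14, Kif23 and Kif3a and the E2F-like match of Kif16b. Among the 11 mitotic kinesin genes with a sequence, a CHR match was found in 4 (Kif11, Kif15, Kif22 and Kif2c), against 9.70% of all 32851 promoter windows of the same length. A CCAAT match was found in 7 of the 11 (Kif4, Kif11, Kif14, Kif18b, Kif22, Kif23 and Kifc1), against 24.5% of all windows. An E2F-like match was found in 2 of the 11 (Kif15 and Kif18a), against 2.19% of all windows. Of 11 transport kinesin genes, 1 held the CHR (Kif1a), 3 the CCAAT box (Kif1b, Kif3a and Kif3b) and 1 the E2F-like site (Kif16b). Of 7 kinesin genes of cilia and microtubule ends, 2 held the CHR (Kif24 and Kif27) and 2 the CCAAT box (Kif6 and Kif24). The Kif17 window held none of the 3. Kif22, which holds CHR and CCAAT matches, was the mitotic gene with no call in any comparison. A match describes letters in a window and not a bound site.

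Between P0 and P14 most kinesin genes fell. Of the 38 members tested, 28 were lower at P14 than at P0, where 34.5% of all genes tested were lower, and 6 were higher, where 34.4% of all genes were higher. The median log2 fold change was -0.73 over these members and 0.01 over all genes, and the counts were again 28 and 6 without P14 replicate 2. On the deposited values, taken without rescaling across tables, the median of all genes was itself 0.47, with 3190 of 15734 lower and 8495 higher. There 16 members were lower and 9 higher. Between P14 and P28 few members changed: 9 were lower (9.09% of all genes) and 2 were higher (9.22% of all genes). The counts were 9 and 4 without P14 replicate 2. On the deposited values they were 12 and 0, where 3858 of all 15734 genes were lower and 672 higher. At P28 against P0, 27 were lower (35.6% of all genes) and 6 higher (35.7% of all genes), with 27 and 7 without P14 replicate 2. The other 3 members, Kif12, Kif19b and Kif28, were below 1 scaled CPM in all 12 libraries and were not tested. Kif2c and Kif18b passed the filter on low values through their P0 libraries alone, so a lower value later was built into their passing. Without them 26 of 36 members were lower at P14 than at P0 and 6 were higher. Kif4, which stays in that count, reached 1 scaled CPM in too few P14 and P28 libraries to pass without its P0 libraries.

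**Figure D1:**
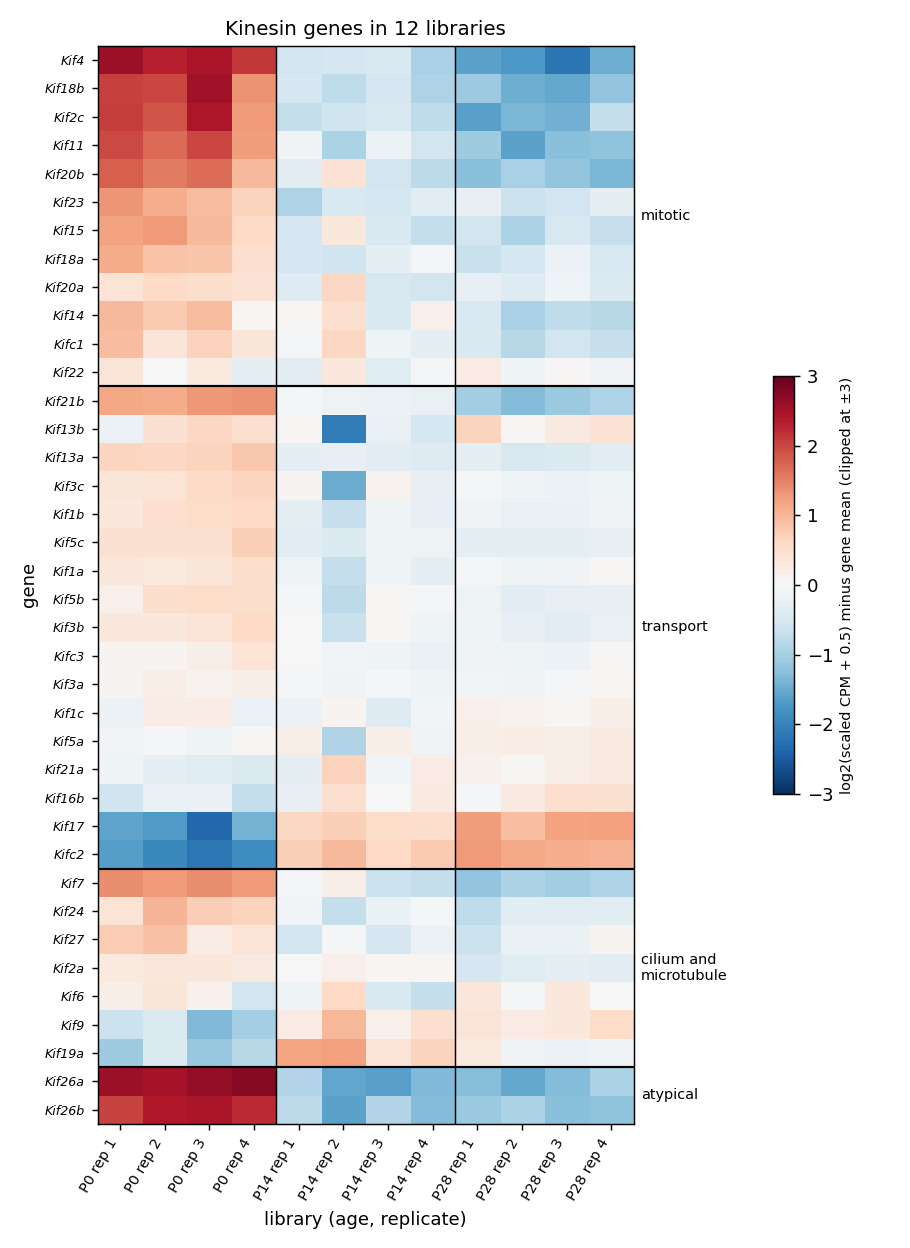
The 38 tested kinesin genes as log2(scaled CPM + 0.5) minus each gene's mean over the 12 libraries, coloured up to ±3, with libraries in columns by age (P0, P14, P28) and genes in rows by role. Most mitotic genes and both Kif26 genes are low at P14 and P28 and high at P0, and Kifc2, Kif17, Kif9 and Kif19a are higher at P14 and P28 than at P0.

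Of the 12 mitotic kinesins, 11 fell at P14 against P0 and none rose, with a median log2 fold change of -1.47. Over all genes tested 34.5% were lower and 34.4% higher. Without Kif2c and Kif18b, 9 of 10 fell, with a median of -1.27, and on the deposited values 8 of the 12 fell, without Kif14, Kif20a and Kifc1. The summed level of the 12 ranged over 83.7 to 131 scaled CPM (P0), 37.4 to 55.1 (P14) and 28.7 to 36.9 (P28). The largest fall was that of Kif4, a chromokinesin that binds mitotic chromosomes and the central spindle. It measured 15.4, 12.9, 14.2 and 11.2 scaled CPM at P0, 1.33, 1.40, 1.44 and 0.863 at P14, and 0.379, 0.314, 0.0845 and 0.479 at P28. The 3 ages did not overlap, and Kif4 fell by 2.99 ± 0.19 at P14 against P0 (adjusted p = 1.53e-08) and again fell by 1.12 ± 0.19 at P28 against P14 (adjusted p = 0.00181). At P28 this level rests on 2 to 15 reads a library. Kif4 would not have passed the filter on low values without its P0 libraries, so a fall from P0 was partly built into its passing.

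Kif18b, which acts at the plus ends of spindle microtubules, measured 6.02, 5.83, 8.57 and 3.51 scaled CPM at P0, 0.608, 0.429, 0.606 and 0.324 at P14, and 0.237, 0.0698, 0.0422 and 0.191 at P28. Kif2c, a microtubule depolymerase of the centromere, measured 7.23, 6.27, 9.35 and 3.96 at P0, 0.608, 0.715, 0.834 and 0.575 at P14, and 0.0947, 0.209, 0.169 and 0.606 at P28. The P0 libraries alone brought both genes past the filter, so their log2 fold changes at P14 against P0, -2.66 ± 0.23 for Kif18b and -2.55 ± 0.25 for Kif2c, are given as a description with no test. From P14 onward neither passed the threshold, with adjusted p = 0.066 for Kif18b and 0.081 for Kif2c at P28 against P14. Their P28 libraries held 1 to 6 reads of Kif18b and 2 to 19 reads of Kif2c, where 3 reads correspond to 0.0957 to 0.142 scaled CPM in a P28 library.

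Kif11, the tetrameric motor that pushes spindle poles apart, measured 24.5, 20.2, 25.0 and 14.6 scaled CPM at P0, 5.40, 2.78, 5.12 and 3.85 at P14, and 2.51, 1.57, 2.15 and 2.27 at P28. Its ages did not overlap. It fell by 2.18 ± 0.22 at P14 against P0 (adjusted p = 1.35e-06) and fell by 0.84 ± 0.22 at P28 against P14 (adjusted p = 0.0199), a call that 4 of 27 alternative settings ended. Kif20b, a motor of the cytokinetic midbody, measured 9.15, 7.73, 8.41 and 4.94 at P0, 1.75, 3.26, 1.40 and 1.11 at P14, and 0.663, 0.907, 0.718 and 0.574 at P28. Its ages did not overlap either, and it fell by 1.80 ± 0.25 at the first step (adjusted p = 2.91e-05) and fell by 0.90 ± 0.25 at the second (adjusted p = 0.0275). That second call was ended by 6 of 26 alternatives, with adjusted p up to 0.0835.

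Kif14, which acts in cytokinesis, measured 4.52, 3.86, 4.40 and 2.17 scaled CPM at P0, 2.13, 3.12, 1.36 and 2.34 at P14, and 1.37, 0.802, 1.01 and 0.926 at P28. Neighbouring ages overlapped. It fell by 0.63 ± 0.24 at P14 against P0 (adjusted p = 0.0337) and fell by 0.81 ± 0.24 at P28 against P14 (adjusted p = 0.0342), and of 26 alternatives 10 ended the first call and 9 the second. The spindle pole motor Kifc1 fell by 0.56 ± 0.20 at P14 against P0 (adjusted p = 0.0259) and fell by 0.68 at P28 against P14 (adjusted p = 0.0355), calls ended by 11 and 8 of 27 alternatives. Kifc1 has a near copy, Kifc5b, with which reads may be shared.

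The remaining mitotic genes other than Kif22 also fell. Kif23, a subunit of the centralspindlin complex of cytokinesis, fell by 1.58 at P14 against P0, Kif15, which backs up Kif11 in the spindle, fell by 1.36, and Kif18a, which aligns chromosomes, fell by 1.18. At P28 against P14 none of these 3 passed the threshold. Kif20a, another cytokinesis motor, fell by 0.68 at P14 against P0 and fell by 0.95 without P14 replicate 2, where it measured 8.76 scaled CPM, against 3.56 to 4.11 in the other P14 libraries. The span of Kif20a overlaps Cdc23 and Brd8, and since no source used here gives the counted strand, its reads cannot be told apart from theirs where the genes overlap.

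Kif22, a chromokinesin, was the mitotic gene without a call. It measured 16.9, 12.6, 15.8 and 10.3 scaled CPM at P0, 9.89, 15.9, 9.78 and 12.2 at P14, and 15.3, 11.5, 13.1 and 11.8 at P28, so its 3 ages overlapped. The log2 difference at P14 against P0 was -0.21, with a 95% interval of -0.61 to 0.19, so a fall of the median size of the list lies outside it. The difference was -0.35 without P14 replicate 2 and 0.25 on the deposited values, and neither passed the threshold.

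**Figure D2:**
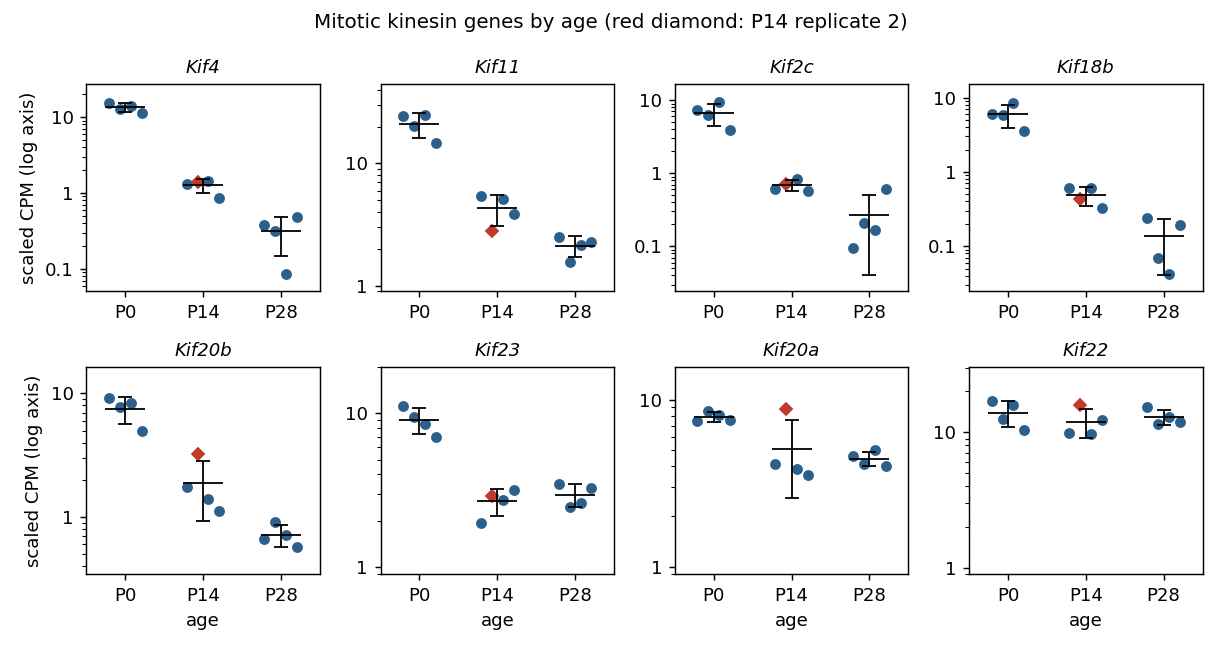
Scaled CPM (log axis) of 8 mitotic kinesin genes by age, with a point per library, the mean and SD as lines, and P14 replicate 2 as a red diamond. Kif4 lies at 0.863 to 1.44 at P14, against 11.2 to 15.4 at P0, whereas Kif22 overlaps at all 3 ages.

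Cycling cell markers fell along with the mitotic kinesins. All 21 cycling cell markers were lower at P14 than at P0, and 20 of 21 without P14 replicate 2. Over all genes tested 34.5% were lower at that step. Which of these markers passed the filter through their P0 libraries alone is not given here. Their summed level ranged over 259 to 393 scaled CPM (P0), 69.9 to 106 (P14) and 68.0 to 84.4 (P28). The sum of 7 neural progenitor markers was 56.5 to 103 at P14, against 308 to 425 at P0, with 5 lower and 1 higher. That of 6 vascular markers was 36.1 to 100.2 at P14, against 526 to 818 at P0, with 5 lower and none higher. Of 4 oligodendrocyte precursor markers 2 were lower and none higher at that step. The part of these markers in the kinesin result was not tested. Fewer cells of a type and less RNA per cell cannot be told apart in these bulk libraries. P14 replicate 2 was the highest P14 library both in the cycling cell markers, at 106, and in the summed mitotic kinesins, at 55.1. P0 replicate 4 was the lowest P0 library in both, at 259 and 83.7. These are single libraries, and a link between the sums was not tested.

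The transport kinesins split. At P14 against P0, 11 of 17 fell and 4 rose (Kifc2, Kif17, Kif16b and Kif21a), with a median log2 fold change of -0.59, while over all genes 34.5% were lower and 34.4% higher. On the deposited values 4 of the 17 were lower (Kif5c, Kif1b, Kif13a and Kif21b) and 6 higher (Kif1c and Kif3a besides the 4 named), with a median of -0.11, where the median of all genes was 0.47. The calls of Kif1a, Kif3b, Kif3c, Kif5b, Kif13b and Kifc3 were lost on that scale. The summed level of the 17 ranged over 5328 to 6096 scaled CPM (P0), 3477 to 4346 (P14) and 4222 to 4503 (P28). The difference of medians of the mitotic and transport kinesin groups at P14 against P0, mitotic minus transport, was -0.88 on the log2 scale, and -0.0895 with a filter at a mean of 5 scaled CPM, which leaves 5 of the 12 mitotic genes. At P28 against P14, 1 of the 17 fell (Kif21b) and 2 rose (Kifc2 and Kif17), where 9.09% of all genes were lower and 9.22% higher. Without P14 replicate 2, 4 of the 17 rose, where 1952 of 15734 genes were higher. On the deposited values none rose, where 672 of all genes were higher. At P28 against P0, 10 fell and 4 rose, where 35.6% of all genes were lower and 35.7% higher. On the deposited values 6 fell and 6 rose, where 4155 of 15734 genes were lower and 7148 higher.

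Kifc2, a minus-end directed motor of neurons, rose most. It measured 84.6, 70.1, 59.4 and 72.7 scaled CPM at P0, 436, 529, 403 and 458 at P14, and 651, 588, 571 and 554 at P28. The 3 ages did not overlap, and Kifc2 was 6.35-fold higher at P14 than at P0 (log2 fold change 2.67 ± 0.12, adjusted p = 4.02e-10). Per kilobase of exon its level was 22.3 ± 3.21 at P0, 142 ± 16.5 at P14 and 184 ± 13.2 at P28, which put it at rank 12 of the 40 members with a known length at P0 and at rank 1 at P14 and P28. The later rise, 0.38 ± 0.12 at P28 against P14 (adjusted p = 0.0383), was ended by 14 of 27 alternatives. Kifc2 lies at 15:76659784-76668196 (GRCm38.p6), and its ends overlap Cyhr1 and Foxh1, so reads at those ends are uncertain.

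Kif17, a dendritic motor known for carrying NMDA receptor vesicles, measured 5.30, 4.89, 2.91 and 6.06 scaled CPM at P0, 26.1, 28.2, 25.1 and 24.6 at P14, and 41.2, 32.2, 39.6 and 40.0 at P28. The ages did not overlap, and the rise at P14 against P0 was 5.15-fold (2.36 ± 0.17, adjusted p = 5.75e-08). The further rise at P28 against P14, 0.54 ± 0.17 (adjusted p = 0.0454), was ended by 18 of 27 alternatives. Kif16b, an early endosome motor, measured 10.3, 13.6, 13.8 and 9.42 at P0, 13.2, 22.3, 16.0 and 19.0 at P14, and 15.1, 19.2, 22.6 and 21.8 at P28. It rose by 0.55 ± 0.19 at P14 against P0 (adjusted p = 0.017), although P0 and P14 overlapped and 2 of 27 alternatives ended the call.

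Markers of other cells also differed between the ages at which these transport genes rose. Besides the oligodendrocyte markers given above, all 6 microglia markers were higher at P14 than at P0, with sums of 24.1 to 35.1 scaled CPM (P0), 40.3 to 88.6 (P14) and 63.7 to 77.3 (P28). Of 6 astrocyte markers 3 were higher at P14 than at P0, with sums of 393 to 561 (P0), 389 to 1095 (P14) and 541 to 679 (P28). Over all genes tested 34.4% were higher at that step. At P28 against P0, 2 astrocyte markers were higher and 2 lower, where 35.7% of all genes were higher and 35.6% lower. The part of these markers in the rises was not tested. In P14 replicate 2, the library that stood apart, these sums were the lowest of the P14 libraries, at 40.3 for microglia, 389 for astrocytes and 952 for oligodendrocytes. Kifc2, at 529, Kif17, at 28.2, Kif16b, at 22.3, and Kif21a, at 341, were highest at P14 in that library. A link between these values was not tested.

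The Kif21 genes, motors that also restrain microtubule growth, differed in direction. Kif21b measured 822, 793, 903 and 929.8 scaled CPM at P0, 355, 331, 322 and 314 at P14, and 178, 149, 169 and 193 at P28. With no overlap of ages it fell by 1.38 ± 0.10 at P14 against P0 (adjusted p = 3.09e-08) and fell by 0.94 ± 0.10 at P28 against P14 (adjusted p = 6.58e-05), the smallest adjusted p of the 38 members at that step. Kif21a measured 193, 172, 163 and 155 at P0, 173, 341, 198 and 250.0 at P14, and 230.3, 215, 239.8 and 252 at P28. It rose by 0.45 ± 0.17 at P14 against P0 (adjusted p = 0.0292) and by 0.27 without P14 replicate 2, its highest library. Its P0 and P14 libraries overlapped, and 5 of 27 alternatives ended that call, with adjusted p up to 0.0826. Per length, Kif21a made up 24.9% ± 2.97 of the Kif21 pair at P0, 53.9% ± 7.95 at P14 and 69.4% ± 1.18 at P28.

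The change of balance was tested with the log2 ratio of a pair within each library, for 6 pairs and 3 comparisons. These tests were not part of the planned design, and the pairs were chosen with earlier results of these data known. Each test was an exact two-sided permutation test of 4 against 4 libraries with 70 arrangements, in which 0.0286 is the smallest p possible and 0.0429 its value adjusted over the 18 tests. The Kif21b to Kif21a ratio changed by -1.83 at P14 against P0, by -0.96 at P28 against P14 and by -2.78 at P28 against P0, each at that smallest p of the exact test. Without P14 replicate 2 the step values were -1.65 and -1.14.

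The Kif5 genes encode the heavy chains of conventional kinesin, the main motor for fast anterograde transport in axons. Kif5a measured 508, 515, 494 and 550.1 scaled CPM at P0, 605, 288, 621 and 501 at P14, and 611, 628, 604 and 652 at P28. P14 replicate 2 was the low P14 library, and also the lowest in the summed excitatory neuron markers, at 1266 against 2007 to 2176 in the other P14 libraries. It was the lowest at P14 in the astrocyte, microglia and oligodendrocyte sums too, and the highest in the cycling cell sum. The part of any of these in the Kif5a level was not tested. For Kif5a every P28 library lay above every P0 library. Kif5a passed the threshold in no comparison with all libraries, at -0.10 ± 0.19 for P14 against P0 with a 95% interval of -0.50 to 0.31. That difference turned to 0.15 without P14 replicate 2 and to 0.39 on the deposited values, with no call in either. At P28 against P14 it was 0.37, and 0.12 without that library. Without P14 replicate 2 Kif5a was called higher at P28 than at P0, by 0.27 (adjusted p = 0.00398), the same size as the 0.27 ± 0.19 found with all libraries, and on the deposited values by 0.55 (adjusted p = 0.0196).

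Kif5b, the ubiquitous heavy chain, measured 138, 179, 185 and 181 scaled CPM at P0, 122, 72.5, 129 and 121 at P14, and 112, 101, 106 and 105 at P28. Kif5c, which like Kif5a is enriched in neurons, measured 835, 832, 835 and 990.3 at P0, 488, 456, 558 and 547 at P14, and 491, 502, 499 and 509.8 at P28. Both fell at P14 against P0 with no overlap, Kif5b by -0.65 ± 0.16 on the log2 scale (adjusted p = 0.00285) and Kif5c by -0.77 ± 0.09 (adjusted p = 6.74e-06), and neither passed the threshold at P28 against P14. Of the 3 genes summed per length, Kif5c made up 55.0% at P0, 45.3% at P14 and 39.5% at P28, and Kif5a made up 34.7%, 45.5% and 52.4% at those ages.

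The Kif5c to Kif5a ratio changed by -0.67 at P14 against P0 and by -1.07 at P28 against P0, each at the smallest p of the exact permutation test (0.0286, adjusted 0.0429). At P28 against P14 it was -0.40, with an exact permutation p = 0.0571. Without P14 replicate 2 the step values were -0.87 at P14 against P0 and -0.20 at P28 against P14. The Kif5b to Kif5a ratio fell in all 3 comparisons at the smallest p of that exact test: by -0.55 at P14 against P0, by -0.40 at P28 against P14 and by -0.95 at P28 against P0.

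The Kif1 genes carry synaptic vesicle precursors (Kif1a and Kif1b), mitochondria (Kif1b) and secretory vesicles (Kif1c). Kif1a measured 1093, 1068, 1114 and 1248 scaled CPM at P0, 779, 526, 792 and 725 at P14, and 850.3, 791, 807 and 889 at P28. Per kilobase it was the highest member at P0, at 136 ± 9.67, ahead of Kif5c at 122 ± 10.9, Kif21b at 79.7 ± 6.01 and Kif5a at 76.9 ± 3.54. Over the P0 libraries the per-kilobase ranges of Kif1a and Kif5c overlapped, and so did those of Kif21b and Kif5a.

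Kif1b measured 801, 902, 939 and 965 scaled CPM at P0, 523, 399, 581 and 544 at P14, and 595, 550.1, 561 and 598 at P28. Kif1a and Kif1b fell at P14 against P0, with log2 fold changes of -0.70 ± 0.12 (adjusted p = 2.21e-04) and -0.83 ± 0.11 (adjusted p = 2.40e-05), with P14 replicate 2 the lowest library of each. Kif1c measured 50.8, 67.3, 67.0 and 51.1 at P0, 51.4, 60.6, 44.0 and 54.6 at P14, and 64.2, 62.0, 59.5 and 65.7 at P28, and no comparison passed the threshold. Its P14 against P0 difference was -0.16, with a 95% interval of -0.42 to 0.10. On the deposited values Kif1c was called higher at that step, by 0.32 (adjusted p = 0.0256), and at P28 against P0, by 0.38 (adjusted p = 0.0106). The Kif1b to Kif1a ratio fell by 0.21 at P28 against P0, at the smallest p of the exact permutation test (0.0286), and missed the threshold at each step, at an exact p = 0.143.

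Kif3a and Kif3b pair in heterotrimeric kinesin-2, which serves cilia and axons, and Kif3c is a neuronal partner. Kif3a measured 189, 206, 192 and 205 scaled CPM at P0, 172, 167, 174 and 164 at P14, and 171, 167, 173 and 186 at P28. Kif3b measured 179.7, 182, 194 and 221 at P0, 147, 92.0, 149 and 134 at P14, and 134, 122, 115 and 124 at P28. Kif3a fell by 0.23 ± 0.07 (adjusted p = 0.0124) and Kif3b fell by 0.59 ± 0.14 (adjusted p = 0.00178) at P14 against P0, and on the deposited values Kif3a was 0.26 higher instead.

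Kif3c measured 285, 294, 333 and 347 scaled CPM at P0, 233, 77.8, 239 and 185 at P14, and 214, 200.4, 195 and 200.4 at P28. It fell by 0.90 ± 0.27 at P14 against P0 (adjusted p = 0.00889) and fell by 0.52 without P14 replicate 2 (adjusted p = 1.67e-04). The calls at P28 against P0, -0.63 for Kif3c and -0.18 for Kif3a, were ended by 17 and 12 of 27 alternatives. The Kif3c to Kif3a ratio fell by 0.67 at P14 against P0 at the smallest p of the exact permutation test (0.0286), and the value was -0.31 without P14 replicate 2. At P28 against P14 it was 0.22 (exact permutation p = 0.914), and -0.14 without that library, and at P28 against P0 it was -0.45 at the smallest p of the exact test.

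The other transport members also fell at P14 against P0. Kif13a, which carries mannose 6-phosphate receptors, measured 56.3, 55.8, 57.5 and 63.9 scaled CPM at P0, 30.0, 30.2, 28.5 and 27.4 at P14, and 29.4, 25.5, 26.7 and 28.6 at P28. All later libraries lay below all P0 libraries, and it fell by 0.99 ± 0.09 at P14 against P0 (adjusted p = 2.90e-07). Its close relative Kif13b ranged over 16.6 to 29.3 (P0), 3.98 to 19.4 (P14) and 19.4 to 30.0 (P28), with 3.98 in P14 replicate 2. Kif13b fell by 1.05 ± 0.37 at P14 against P0 (adjusted p = 0.0209) and fell by 0.58 without that library. Without it Kif13b was called higher at P28 than at P14 (0.59, adjusted p = 0.0364, against 1.06 and 0.0615 with it). Kifc3, a minus-end motor, fell by 0.29 ± 0.09 (adjusted p = 0.0133), and on the deposited values without rescaling it was 0.19 higher, with no call.

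**Figure D3:**
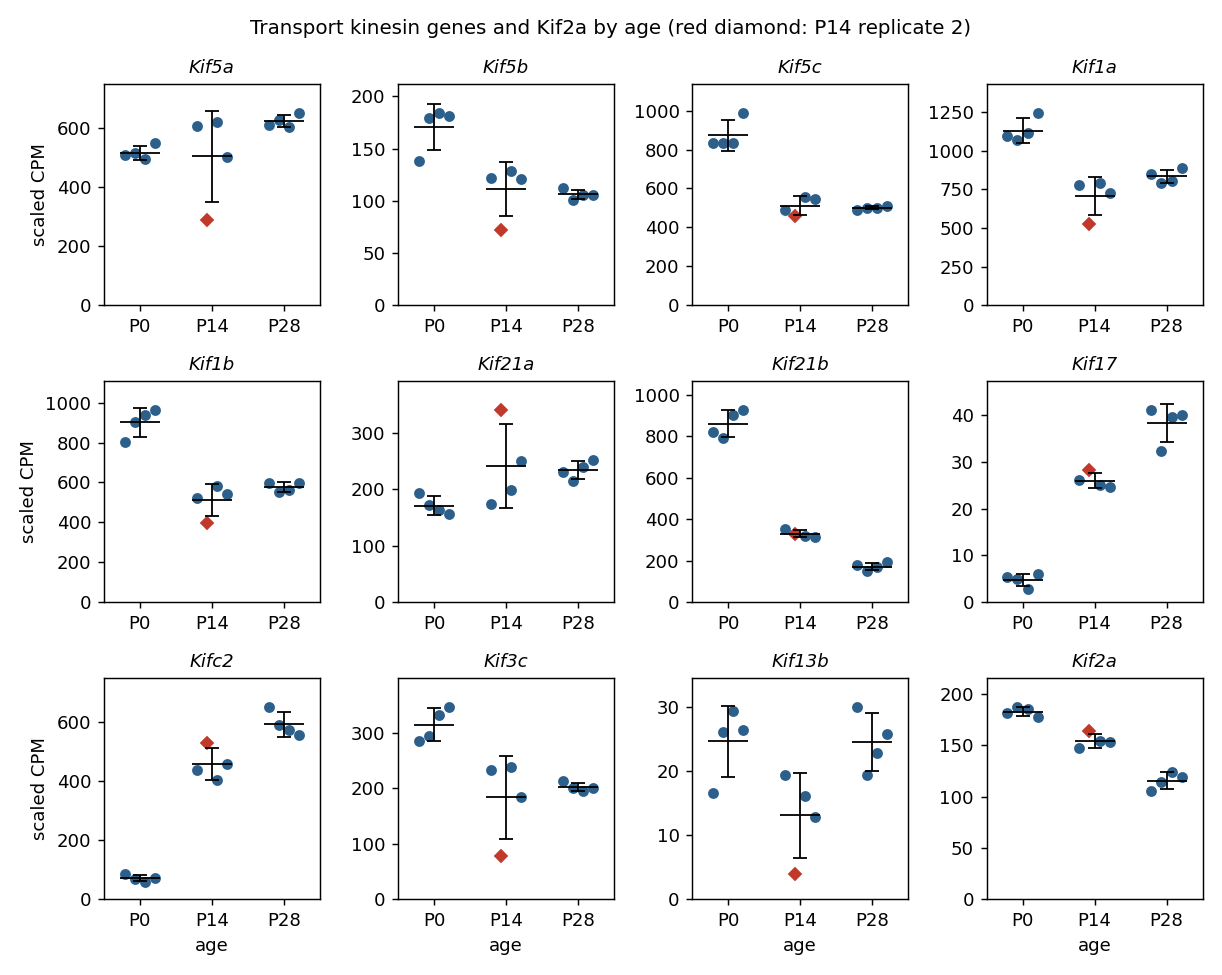
Scaled CPM (linear axis) of 11 transport kinesin genes and Kif2a by age, with a point per library, the mean and SD as lines, and P14 replicate 2 as a red diamond. Kifc2 lies at 403 or more in all later libraries, against at most 84.6 at P0, while Kif21b lies at 355 or less in all later libraries, against 793 or more at P0.

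Of the 7 tested kinesins of cilia and microtubule ends, 4 fell and 2 rose at P14 against P0, with a median log2 fold change of -0.24, where 34.5% of all genes were lower and 34.4% higher. The counts were the same without P14 replicate 2, with a median of -0.46. On the deposited values 2 were lower and 3 higher, with a median of 0.15, where the median of all genes was 0.47. Kif19a, which shortens microtubules at the tips of cilia, measured 1.02, 1.90, 0.943 and 1.27 scaled CPM at P0, 6.73, 6.98, 3.71 and 4.57 at P14, and 3.36, 2.44, 2.32 and 2.46 at P28. P14 was the highest age with no overlap, and Kif19a rose by 1.74 ± 0.22 at P14 against P0 (adjusted p = 1.20e-05) and fell by 0.90 ± 0.22 at P28 against P14 (adjusted p = 0.0146). It was the only tested member called higher at the first step and lower at the second. Kif9, a kinesin of motile cilia, measured 4.22, 4.96, 2.44 and 3.14 at P0, 8.21, 14.1, 7.58 and 9.67 at P14, and 9.09, 8.20, 8.62 and 10.3 at P28. All later libraries lay above all P0 libraries, and Kif9 rose by 1.31 ± 0.22 at P14 against P0 (adjusted p = 1.22e-04).

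Kif7, which regulates Hedgehog signalling at the tip of the primary cilium, measured 9.21, 8.46, 9.20 and 8.52 scaled CPM at P0, 3.04, 3.69, 1.86 and 1.76 at P14, and 1.14, 1.43, 1.31 and 1.47 at P28. With no overlap of ages it fell by 1.65 ± 0.19 at P14 against P0 (adjusted p = 5.50e-06) and fell by 0.70 ± 0.19 at P28 against P14 (adjusted p = 0.0248). That later call was ended by 6 of 26 alternatives, with adjusted p up to 0.0688. Kif24, a kinesin of the centriole, measured 2.83, 4.59, 3.69 and 3.51 at P0, 1.86, 1.03, 1.71 and 1.91 at P14, and 0.994, 1.53, 1.48 and 1.50 at P28, and fell by 0.97 ± 0.19 at P14 against P0 (adjusted p = 5.47e-04). Kif27, a relative of Kif7, fell by 0.90 at that step, and Kif6, a kinesin of ependymal cilia, did not pass the threshold, at -0.21 with a 95% interval of -0.79 to 0.38. The Kif6 value was -0.46 without P14 replicate 2 and 0.15 on the deposited values, with no call in either.

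Kif2a, a microtubule depolymerase that in neurons limits branches of axons, fell in small steps with little spread. It measured 181, 188, 185 and 178 scaled CPM at P0, 147, 164, 154 and 153 at P14, and 105, 114, 124 and 119 at P28. The ages did not overlap. It fell by 0.24 ± 0.08 at P14 against P0 (adjusted p = 0.0111) and fell by 0.42 ± 0.08 at P28 against P14 (adjusted p = 0.00258). On the deposited values without rescaling Kif2a was 0.24 higher at P14 than at P0, and on that scale the median of all genes was 0.47. The related Kif2c of the spindle, given above, had a log2 fold change of -2.55 at the first step.

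The 2 tested atypical members fell most of all 38 at P14 against P0. Kif26a, which lacks motor activity and acts in growth factor signalling of enteric neurons, measured 124, 119, 130.1 and 139.5 scaled CPM at P0, 10.9, 6.64, 6.25 and 7.91 at P14, and 8.15, 6.73, 7.94 and 10.3 at P28. Kif26b, its relative, known from kidney development and cell polarity, measured 117, 153, 158 and 138 at P0, 16.2, 9.01, 15.2 and 11.3 at P14, and 13.0, 14.4, 11.7 and 12.03 at P28. Each later library lay below 20 scaled CPM, against more than 100 in each P0 library, and Kif26a fell by 3.96 ± 0.17 (adjusted p = 2.93e-10) and Kif26b fell by 3.43 ± 0.17 (adjusted p = 1.31e-09). At P28 against P14 neither passed the threshold, at 0.08 for Kif26a with a 95% interval of -0.28 to 0.43, and at 0.02 for Kif26b with an interval of -0.34 to 0.38. The Kif26b to Kif26a ratio was 0.57 higher at P14 than at P0, at the smallest p of the exact permutation test (0.0286). It was 0.51 higher at P28 than at P0 (exact permutation p = 0.0857) and changed by -0.06 at P28 against P14 (exact permutation p = 0.771), and neither passed the threshold.

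**Figure D4:**
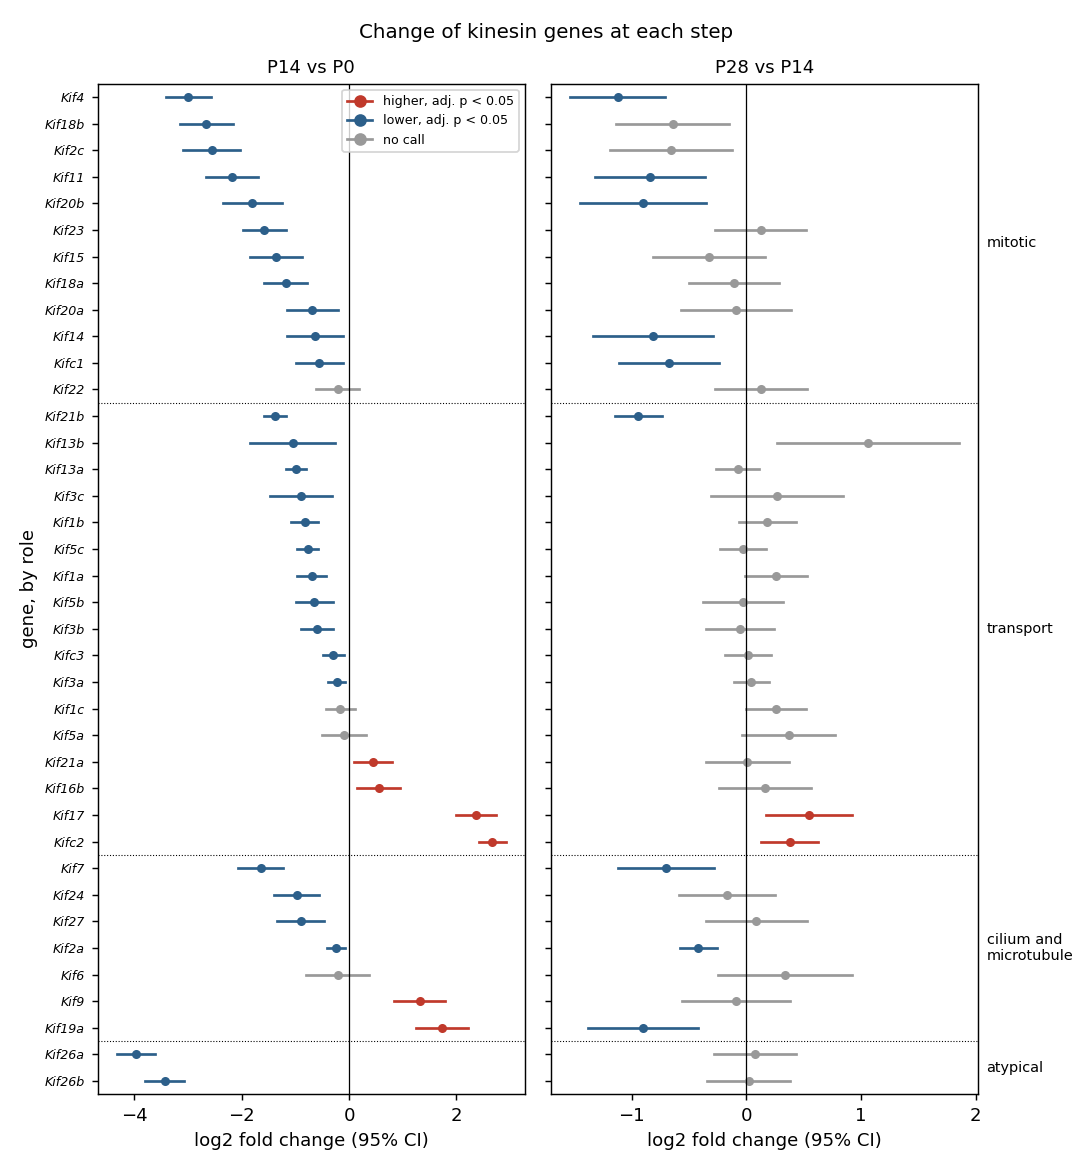
Log2 fold change with its unadjusted 95% interval for the 38 tested kinesin genes, at P14 against P0 on the left and at P28 against P14 on the right, coloured by call. The falls at P14 reach -3.96 (Kif26a), 6 genes lie to the right with a call, and most intervals on the right panel cross 0.

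Genes that work with kinesins are read against all genes tested, of which 34.4% were higher and 34.5% lower at P14 than at P0. On the deposited values, 8495 of the 15734 genes were higher and 3190 lower at that step. Of 5 tested light chain and accessory subunit genes, 3 rose and 1 fell at P14 against P0, with 3 and 2 without P14 replicate 2 and 4 and 0 on the deposited values. Klc2, a kinesin light chain that binds cargo, had a mean scaled CPM of 107 ± 10.2 (P0), 173 ± 27.1 (P14) and 264 ± 10.4 (P28), a rise of 0.67 (adjusted p = 1.29e-04) and then of 0.63 (adjusted p = 0.00255). Klc1 rose by 0.38 (adjusted p = 0.00354) and Kifbp, which binds and inhibits several kinesins, by 0.58 (adjusted p = 9.44e-04) at P14 against P0.

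Of 24 kinesin cargo adaptor genes, 10 rose and 9 fell at P14 against P0, shares near those over all genes, and on the deposited values 14 were higher and 4 lower. Trak2, which links kinesin to mitochondria, rose by 0.93 (adjusted p = 2.19e-07), and Mapk8ip3, a JIP scaffold for axonal cargo, rose by 0.77 (adjusted p = 1.76e-06). Kidins220, a neurotrophin receptor scaffold carried by kinesin, fell to 281 ± 78.3 scaled CPM at P14, against 1140 ± 101 at P0 (-2.06, adjusted p = 2.99e-07).

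Of 27 genes of dynein and dynactin, the minus-end motor system, 10 rose and 7 fell at that step, and on the deposited values 20 were higher and 2 lower. The dynactin genes Actr1b and Actr1a went opposite ways, with Actr1b higher by 1.49 (adjusted p = 1.97e-09) and Actr1a lower by 0.86 (adjusted p = 4.01e-06), and the dynein adaptor Hook1 rose by 1.41 (adjusted p = 1.42e-06). Of 20 tubulin and microtubule-associated protein genes, 12 fell and 4 rose, with 12 and 6 without P14 replicate 2 and 11 and 8 on the deposited values. Tubb2b, a tubulin of young neurons, fell by 4.71 (adjusted p = 2.22e-11), Dcx, a microtubule-binding protein of migrating neurons, fell by 3.78 (adjusted p = 1.17e-10), and Map7, which recruits conventional kinesin to microtubules, rose by 2.89 (adjusted p = 1.10e-10).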

How the data were processed

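RNA from INTACT-purified cortical nuclei of 12 male pups was analysed as 3 deposited tables, 1 per age. The deposited values are a signal, normalized counts that the authors scaled by 1 factor per library and separately for each age. The submitters' processing notes name DESeq2 and mm10; no source used here gives the aligner, counter, strand, annotation or filter. Whole reads were recovered for 100% of values in every column (tolerance 0.05 reads), and 0 value columns were without a sample. Floors of 3 reads cover counting error only.

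Each column was divided by its total over 25834 shared genes and scaled by a median-of-ratios factor (0.936 to 1.04). The 15734 genes that reached 1 scaled CPM in 4 or more libraries were fitted as log2(scaled CPM + 0.5) with limma 3.58.1 (trend and robust, age as a factor, 12 libraries) in R 4.3.3. Pair ratios used exact permutation tests that were not part of the planned design. Promoters and coordinates come from RefSeq (GRCm38.p6), and exon lengths from an NCBIM37 annotation. The spans of 28 members overlap another annotated gene, where reads are uncertain. On simulated data 80.6 to 88.1% of 2-fold changes and 32.8 to 37.3% of 1.5-fold changes were recovered. The simulation used the same spread for all genes, few changed genes and no deviant library, so recovery in the real libraries may be lower.

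Members, lists and the rule for named genes were chosen with earlier results of these data known. Values in every library are given for up to 4 members per role with the largest non-overlapping change at P14 against P0, up to 8 with the smallest adjusted p at P28 against P14, members called against their list's majority, and 5 subfamily sets. Kif22 was added after its values were seen. Partner genes named are up to 3 per list with the smallest adjusted p. The alternatives covered pseudocount, filter, scaling, limma settings, edgeR 4.0.16 and DESeq2 1.42.0 on the recovered reads, thinning, a replicate block and left-out libraries. For pair ratios they were chosen after seeing the data. Replicates are biological per the labels.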

Additional observations from a re-analysis of the deposited data

Results flagged for a closer look

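Among 126 groups of 4 libraries examined (each gene or summed list at each age), 8 held a library far from the others, where chance alone gives about 1 in 20. Of these, 4 were P14 replicate 2. It was the highest P14 library for Kif20a, at 8.76 scaled CPM against 4.11 in the nearest, for the summed mitotic kinesins, at 55.1 against 37.9, and for the summed kinesins of cilia and microtubule ends, at 195 against 175. It was the lowest for Kif5b, at 72.5 against 121. P0 replicate 1, a merged library, was the lowest P0 library for Kif5b, at 138 against 179, and P0 replicate 4 the highest for Kif5c, at 990.3 against 835. P28 replicate 1 was the highest P28 library for Kif19a, at 3.36 against 2.46, and the lowest for Kif24, at 0.994 against 1.48.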

How the results depend on the processing

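Of 3042 alternative values of single genes, 2805 kept direction and side of the threshold, 62 turned sign with no call in either analysis (14 of them on the deposited values, 48 of them at P28 against P14), 146 lost the call, 23 gained it and 6 turned direction with a call in at least 1 of the analyses. The counts most open to the processing were those at P28 against P14. The 2 genes called higher there became 1 with a pseudocount of 0.1, with upper-quartile scaling, without limma's trend and robust options and on thinned reads, became 0 with no filter, with scaling to the library total, with quantile normalization, on the deposited values and without both merged libraries, and ran from 0 to 4 when each library was left out. The 9 called lower became 4 with the filter at a mean of 5 scaled CPM and 5 without both merged libraries, and ran from 5 to 11 when each library was left out (5 without P14 replicate 1, P28 replicate 2 or P28 replicate 3). The cause was not tested. With the filter at a mean of 5, which tested 26 members, the 28 lower at P14 against P0 became 18, the 27 lower at P28 against P0 became 16, and the difference of medians of the mitotic and transport kinesin groups, mitotic minus transport, was -0.0895 in place of -0.88. That filter removes most mitotic genes.

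On the deposited values without rescaling, 16 members were lower and 9 higher at P14 against P0, and over all genes 8495 were higher and 3190 lower, against 5412 higher and 5436 lower after rescaling. On that scale the median of all genes was 0.47 at P14 against P0, and the 6 turns of direction with a call occurred there: Kif1c (0.32), Kif2a (0.24), Kif3a (0.26) and Kifc3 (0.19) at P14 against P0, and Kif3a (0.0977) and Kifc3 (0.0012) at P28 against P0. On the recovered reads edgeR called 5711 genes higher and 5123 lower at P14 against P0, 1338 and 1664 at P28 against P14, and 5660 and 5434 at P28 against P0. DESeq2 called 5639 and 5402, 1791 and 2085, and 5646 and 5670 in those comparisons. Among members, edgeR changed 4 calls of 114 and DESeq2 changed 3.

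The replicate numbers did not pair libraries across ages (correlations of deviations from -0.51 to 0.36), and a fit with the number as a block gave 1 gene higher at P28 against P14 in place of 2 and ended 4 calls of single genes. Pair ratios without a library leave 3 against 4, where the exact test cannot go below 0.0286, and every ratio past the threshold kept its direction there. Genes with few reads at P28, such as Kif18b, are limited by depth.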
